A study of Mus musculus with 6 samples.

Results

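Sox9 and 7 further Sox transcription factors (Sox4, Sox5, Sox6, Sox12, Sox13, Sox18 and Sox21) were followed in RNA from isolated crypts of mouse intestine. The members were every non-control array probe whose transcript accession belongs to one of these 8 genes. That gave 13 of the 56605 probes on the array, and 6 of the 8 genes were among the 13492 genes bright enough to be tested. The 3 knockout samples came from Villin-Cre; Arid1a f/f mice and 3 control samples from Arid1a f/f mice, so both groups carry the floxed Arid1a alleles and Cre is present only in the knockouts. The Villin promoter directs Cre to intestinal epithelium, and other cell types of a crypt preparation keep Arid1a. The strain is labelled mixed in all 6 samples, and the sources used here do not give the age of the mice. The labels do not say whether samples of a group came from separate mice, so p-values reflect only how much these samples vary, which may be technical.

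Sox proteins bind DNA through an HMG box, a domain that sits in the minor groove and bends the helix, and they usually act with partner factors. The family is divided into groups by HMG box sequence: Sox9 belongs to SoxE, Sox4 and Sox12 to SoxC, Sox5, Sox6 and Sox13 to SoxD, Sox18 to SoxF and Sox21 to SoxB. In the mouse intestine Sox9 is found in the crypt, where it is a target of Wnt signalling and is needed for Paneth cells, the antimicrobial secretory cells of the crypt base. Arid1a is part of BAF, a complex that moves nucleosomes, and contacts DNA through its ARID domain, and the title of the series links it to intestinal stem cells through Sox9.

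Levels are log2 signals relative to the 75th percentile of each array, so a level of 0 is the signal that 75% of its probes do not exceed. Levels of different probes are not set against each other. The 75th percentile lay at a signal of 292, 206 and 205 on knockout arrays 1 to 3 and at 295, 279 and 290.01 on control arrays 1 to 3, and 41.7% to 54.7% of probes were well above background. Knockout 3 and control 3 were hybridised on slide 2 and the other 4 arrays on slide 1. For knockout 2 and control 3 the source name and genotype labels give the opposite group to the title and description, which set the groups here. Arid1a, on chromosome 4, had levels of 2.20, 2.07 and 2.51 in knockouts 1 to 3, against 3.71, 3.47 and 4.01 in controls 1 to 3. The library titled knockout 2 thus sat with the knockouts and that titled control 3 with the controls. Arid1a fell 2.77-fold (log2 difference -1.47 ± 0.21 SE, limma adjusted p = 0.00733) on the only probe kept for the gene, and differed by -1.23 (adjusted p = 0.0978) without knockout 2 and control 3. The 7 epithelial markers (Epcam, Krt8, Krt18, Krt19, Vil1, Cdh1 and Cldn7) were well above background on all 6 arrays.

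Promoter windows are shown for Sox4, the only member called below, and for Sox5, Sox13 and Sox21, the members with 1 window that were tested and not called. Each holds the 250 bases before the annotated start, 5′ to 3′ on the gene's strand (the minus strand for all 4), from RefSeq on GRCm38.p6, with CpG dinucleotides in capitals. The windows lie at chr13:28953700-28953949 for Sox4, chr6:143947107-143947356 for Sox5, chr1:133424213-133424462 for Sox13 and chr14:118237031-118237280 for Sox21.
Sox4: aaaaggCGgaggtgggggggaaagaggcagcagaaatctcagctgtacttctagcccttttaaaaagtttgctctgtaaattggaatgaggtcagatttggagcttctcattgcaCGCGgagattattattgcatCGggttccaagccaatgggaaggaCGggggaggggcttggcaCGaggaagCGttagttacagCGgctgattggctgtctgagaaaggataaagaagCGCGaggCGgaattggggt
Sox5: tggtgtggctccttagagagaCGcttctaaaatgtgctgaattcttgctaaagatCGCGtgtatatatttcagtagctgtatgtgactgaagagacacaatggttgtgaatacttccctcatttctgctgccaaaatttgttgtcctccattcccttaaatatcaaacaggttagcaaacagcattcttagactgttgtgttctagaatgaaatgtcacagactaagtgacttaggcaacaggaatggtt
Sox13: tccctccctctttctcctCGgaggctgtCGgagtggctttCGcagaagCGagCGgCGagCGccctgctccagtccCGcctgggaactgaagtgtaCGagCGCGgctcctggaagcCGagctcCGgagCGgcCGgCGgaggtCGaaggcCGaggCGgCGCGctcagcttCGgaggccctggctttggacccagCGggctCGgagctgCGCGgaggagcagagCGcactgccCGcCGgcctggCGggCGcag
Sox21: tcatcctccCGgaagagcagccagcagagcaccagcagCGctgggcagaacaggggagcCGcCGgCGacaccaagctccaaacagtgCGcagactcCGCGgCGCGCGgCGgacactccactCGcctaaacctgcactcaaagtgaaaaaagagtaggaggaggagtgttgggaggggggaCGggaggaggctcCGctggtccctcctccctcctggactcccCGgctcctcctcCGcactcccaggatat
The Sox4 window holds 11 CpG and is 50.8% G and C, the Sox5 window 3 CpG and 39.6%, the Sox13 window 31 CpG and 72.4%, and the Sox21 window 17 CpG and 65.2%. The median over all 32851 windows was 6 CpG and 52.4%. Fewer CpG than in the Sox4 window were present in 64.4% of windows, fewer than in Sox5's in 29.0%, fewer than in Sox13's in 94.8% and fewer than in Sox21's in 76.5%. Both strands were searched for the TCF/LEF motif ATCAAAG, the recognition sequence of the nuclear partners of beta-catenin, and for the Sox motif AACAAT; neither motif contains the other. The first was present in 3.21% of all windows and the second in 9.42%. None of the 4 windows above holds either. Of the 6 Sox6 windows, 1 holds the TCF/LEF motif and 1 the Sox motif, and the Sox12 window holds neither. The promoter reference used had no window for the other 2 members, Sox9 and Sox18, so they were not searched.

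Sox9 (SoxE, chromosome 11) has 2 probes on the array. The brighter had levels of 0.66, -0.35 and -2.25 in knockouts 1 to 3, against 1.72, 1.16 and 0.37 in controls 1 to 3. Knockout 1 lay above control 3, so the groups overlapped, and knockout 3 was far below the other 5 arrays. The log2 difference was -1.73 ± 0.74 (SE; 95% interval -3.48 to 0.03), with an unadjusted p of 0.0526 and a limma adjusted p of 0.15, so Sox9 was not called. Its spread between knockouts was wide: the SD was 1.48 in knockouts and 0.68 in controls, and 98.5% of tested genes had a lower SD in knockouts. By slide, the difference was -1.28 on the first and -2.62 on the second. A fit that blocked on slide left it unchanged with an SE of 0.41 and an adjusted p of 0.0424, which is a call in a fit that called 18.5% of all genes. Leaving out knockout 1 gave -2.38 (adjusted p = 0.0418), again a call, in a fit that called 29.9% of genes, and leaving out knockout 3 gave -0.93 (adjusted p = 0.260). Leaving out the pair of arrays whose labels contradict each other gave -2.24 (adjusted p = 0.300), in a fit that called 2.37% of genes.

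The dimmer Sox9 probe had levels of -2.49, -2.83 and -2.56 in knockouts 1 to 3, against -1.79, -1.63 and -2.14 in controls 1 to 3. Every knockout lay below every control, and the groups averaged -2.63 ± 0.18 and -1.86 ± 0.26 (SD, n = 3 each). Its difference was -0.77 ± 0.20, with an unadjusted p of 0.00683 and a limma p adjusted over all 26740 kept probes of 0.0574, so this probe was not called either; 10.4% of kept probes were, 4.51% lower. Both probes were lower in knockouts on both slides, the brighter by more on slide 2 and the dimmer by more on slide 1 (-0.95, and -0.42 on slide 2). In bulk samples, fewer cells of a type and less RNA per cell cannot be told apart.

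**Figure D1:**
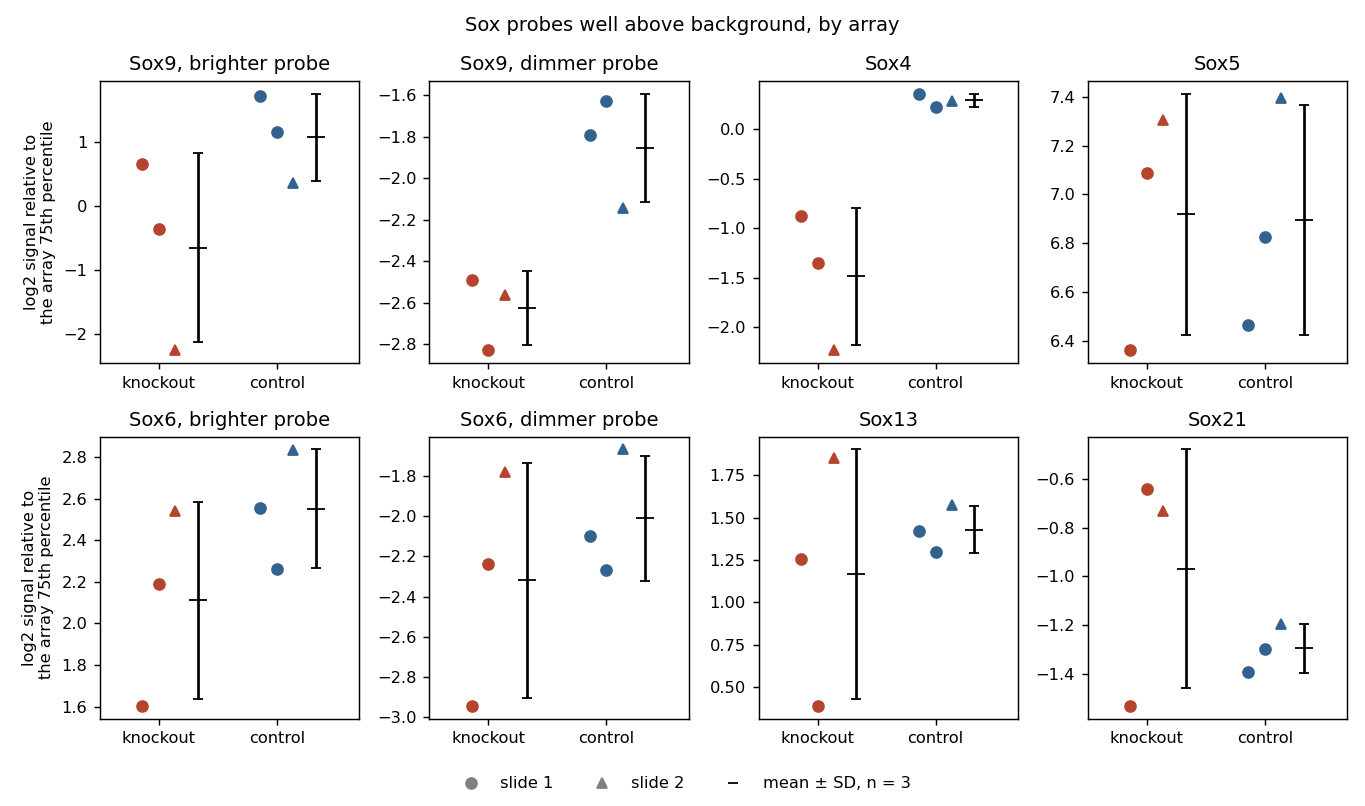
Level of every kept probe of the Sox members on each array (log2 signal relative to the 75th percentile of the array), with knockouts left of controls and points marked by slide; black marks are group means with SD. Knockout 3 is lowest on the brighter Sox9 probe, at -2.25, and every knockout lies below every control for Sox4.

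Sox4 (SoxC, chromosome 13), which in the mouse gut promotes secretory fates such as tuft cells, was the only member called. Its level was -0.87, -1.36 and -2.23 in knockouts 1 to 3, against 0.36, 0.23 and 0.29 in controls 1 to 3. The 3 controls were close together and every knockout lay below all of them. Sox4 fell 3.43-fold (-1.78 ± 0.34 SE, 95% interval -2.58 to -0.98, limma adjusted p = 0.0195). Within slides it differed by -1.41 and -2.52, and blocking on slide gave an adjusted p of 0.0163. The sign was negative in all 21 alternatives. The adjusted p was 0.0532 without knockout 2, 0.0745, 0.0671 and 0.0681 without controls 1, 2 and 3 in turn, 0.155 without the pair of arrays with contradicting labels, 0.0527 on slide 1 alone and 0.0619 with no filter on dim probes, none of which is a call. With groups by source name and genotype Sox4 differed by -0.68 (adjusted p = 0.999), also not a call. Sox12 (chromosome 2), also of the SoxC group, did not pass the background flag on any of the 6 arrays, with processed signals of 5.0, 4.75 and 2.55 in knockouts and 7.17, 5.31 and 7.61 in controls, and was not tested.

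The SoxD factors lack a transactivation domain and are known as partners of Sox9 in cartilage. Sox5 (chromosome 6) has 3 probes for 1 transcript. The brightest had levels of 6.36, 7.09 and 7.30 in knockouts 1 to 3, against 6.46, 6.83 and 7.40 in controls 1 to 3, and the groups overlapped. The difference was 0.02 ± 0.33 (95% interval -0.77 to 0.81, limma adjusted p = 0.968), and changes inside that interval could not be told from 0 with 3 arrays a group. Of the other Sox5 probes, 1 was well above background only on knockout 3 and control 3, both on slide 2, and 1 on no array. Processed signals over the arrays were 23989 to 48852 on the brightest probe, but 12.1 to 28.2 and 1.93 to 8.44 on the other 2. Whether the brightest probe reports Sox5 was not tested.

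Sox6 (chromosome 7) is known for cartilage, muscle and red cell development and also has 3 probes. The brightest had levels of 1.60, 2.19 and 2.54 in knockouts 1 to 3, against 2.56, 2.26 and 2.83 in controls 1 to 3. The difference was -0.44 ± 0.28 (95% interval -1.11 to 0.23, limma adjusted p = 0.301), and on the dimmer kept probe -0.31 ± 0.33 (adjusted p over kept probes 0.541). The third probe was well above background only on knockout 3 and control 3. Sox13 (chromosome 1), known in T cell development, had levels of 1.25, 0.39 and 1.85 in knockouts 1 to 3, against 1.42, 1.30 and 1.57 in controls 1 to 3. Knockouts lay both below and above the controls. The difference was -0.26 ± 0.36 (95% interval -1.12 to 0.59, limma adjusted p = 0.631), at -0.54 on slide 1 and 0.28 on slide 2.

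Sox21 (SoxB, chromosome 14), known to oppose SoxB activators in chick neural progenitors, had levels of -1.53, -0.64 and -0.73 in knockouts 1 to 3, against -1.39, -1.30 and -1.20 in controls 1 to 3. Knockout 1 lay below all controls and the other 2 knockouts above them. The difference was 0.33 ± 0.26 (95% interval -0.29 to 0.95, limma adjusted p = 0.400). Leaving out knockout 1 gave 0.61 (adjusted p = 0.0336), which is a call in a fit that called 29.9% of genes. Sox21 was called in only 1 of the 21 alternatives. Sox18 (SoxF, chromosome 2), known in endothelial and lymphatic vessels, did not pass that flag on any array either, with processed signals of 4.49, 4.19 and 1.77 in knockouts and 6.31, 4.70 and 2.99 in controls, and was not tested.

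**Figure D2:**
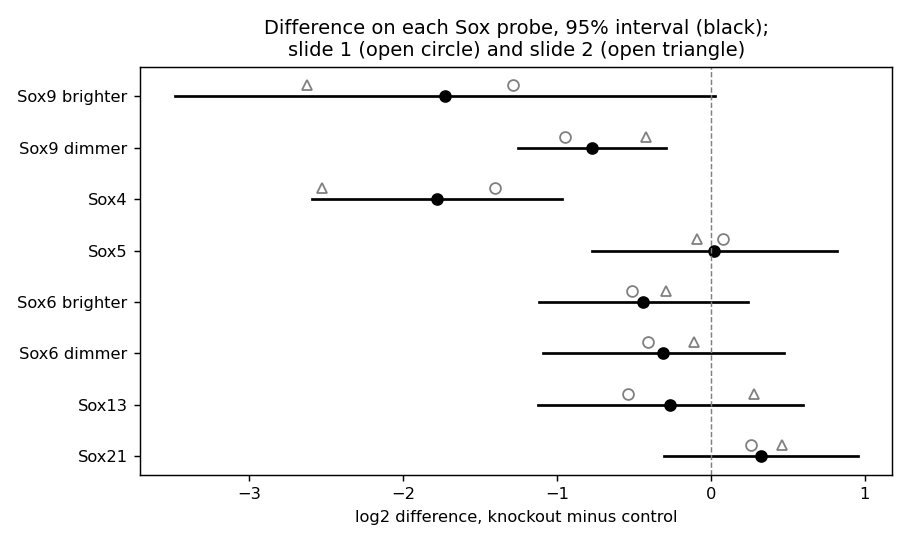
Log2 difference between knockout and control for each kept probe of the members, with 95% intervals from the limma fit over all kept probes (black) and the differences within slide 1 (open circles) and slide 2 (open triangles). The intervals of Sox4, -2.59 to -0.97, and of the dimmer Sox9 probe, -1.25 to -0.29, lie below 0. That of the brighter Sox9 probe reaches 0.025. The intervals are not adjusted for the number of probes, and neither Sox9 probe was called.

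Of the 6 members tested, 1 was called lower and 0 higher by limma, and 1 had an unadjusted p under 0.05, the called Sox4. Over all 13492 genes 14.9% were called, 7.63% lower and 7.28% higher. At an unadjusted p under 0.05 in limma there were 4618 of the 13492 genes, 2425 of them lower. The groups of 1 tested member did not overlap, against 39.7% of all genes (20.7% lower), and of the 8 kept probes 2 did not overlap (Sox4 and the dimmer Sox9 probe), against 36.4% of kept probes (16.1% lower). The median difference was -0.35 over the members and -0.01 over all genes, with 4 members negative and 2 positive. Among 11 other Sox genes, 2 were measured and 0 called, also with 0 at an unadjusted p under 0.05: Sox15 (0.40 ± 0.18, adjusted p = 0.171) and Sox1 (-0.11 ± 0.18, adjusted p = 0.697). A further 7 (Sox2, Sox3, Sox7, Sox8, Sox11, Sox17 and Sox30) were well above background on no array, Sox10 only on knockout 3 and Sox14 only on control 2.

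Groups of genes around the Sox factors were read in the same fit, which called 7.63% of all genes lower and 7.28% higher. Of the TCF/LEF factors, HMG-box proteins that carry Wnt signals to DNA, 2 of 4 were measured, with 0 called and 2 at an unadjusted p under 0.05. Tcf7 differed by -1.53 ± 0.41 (limma adjusted p = 0.0512; by -1.77 with the array median as scale, adjusted p = 0.0274, and by -0.25 with normexp, adjusted p = 0.242) and Tcf7l2 by 0.79 ± 0.22 (adjusted p = 0.0561, and 0.0291, a call, with slide as a block), while Tcf7l1 and Lef1 were well above background on no array. Of 10 genes linked to Sox9 in gut epithelium all were measured, with 1 called lower and 1 called higher. In all 9 of the 10 were negative, and the median was -0.32. At an unadjusted p under 0.05 in limma 3 were lower and 1 higher. Cdx1, an intestinal homeobox factor, fell by 1.14 (± 0.27 SE, adjusted p = 0.0376), with levels of 5.38, 5.32 and 4.50 in knockouts 1 to 3, against 6.42, 6.06 and 6.13 in controls 1 to 3. Bmi1, a Polycomb protein, rose by 1.03 ± 0.15 (adjusted p = 0.00914, and 0.0552 with the array median as scale), and Cdx2, the related homeobox factor, differed by -0.55 ± 0.16 (adjusted p = 0.0625, and 0.0368, a call, with normexp). Of 10 cartilage matrix genes 2 were measured and 0 called, with 0 at an unadjusted p under 0.05, and 7 were well above background on no array. Of 12 other BAF subunits 1 fell and 0 rose, with a median of -0.28: Smarca2, an ATPase of the complex, fell by 2.15 (± 0.27 SE, adjusted p = 0.0053).

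All 8 markers of Paneth cells, which need Sox9 in the mouse, were measured: 6 fell (Wnt3, at least 5.21-fold lower, Cd24a, Habp2, Itln1, Mmp7 and Ang4; limma adjusted p between 0.0155 and 0.0403), 0 rose, and the median was -2.83. Lyz1 differed by -1.53 ± 0.59 (adjusted p = 0.125) and Nupr1 by 0.52 ± 0.37 (adjusted p = 0.353), and neither was called. The summed level of all 8, in multiples of the array's 75th percentile, was 73.9 to 373 in knockouts and 844 to 1101 in controls. Itln1 and Lyz1, with mean levels of 9.10 and 7.94 in controls, together made up most of that sum. The sum was lowest on knockout 3, as for the brighter Sox9 probe, whereas the dimmer Sox9 probe was lowest on knockout 2. Of 7 measured crypt base stem cell markers 2 fell, Ascl2 (-3.09 ± 0.57, adjusted p = 0.0181) and Axin2 (-0.85 ± 0.16, adjusted p = 0.0198), with 6 at an unadjusted p under 0.05 and a median of -2.10. Blocking on slide gave 4 stem calls, normexp background correction 4 and the array median as scale 5, all lower. Over all genes these fits called 2502, 2261 and 1951 (1390 lower with the array median), against 2011 as reported. With no filter on dim probes there were 0 stem calls (6 unadjusted), 1 Paneth call (7 unadjusted) and 697 calls over all genes. The sum of the stem markers was 11.51 to 37.2 in knockouts and 62.2 to 84.5 in controls. Without control 1 or control 2 neither list had a call, with 6 Paneth and 5 stem markers at an unadjusted p under 0.05. Without control 3 the count was 2 for Paneth and 0 for stem markers (5 unadjusted), and without knockout 2 it was 1 for each. Without knockout 1 it was 6 for stem markers. Without the pair with contradicting labels neither list had a call, with 6 Paneth and 4 stem markers unadjusted. The number of genes called over all genes also moved between these fits. It was 638, 789 and 825 without controls 1, 2 and 3, 928 without knockout 2, 4033 without knockout 1 and 320 without that pair. Of 8 measured tuft markers 2 fell (Alox5ap and Alox5), with a sum of 5.43 to 9.52 in knockouts and 11.3 to 16.4 in controls. The 7 epithelial markers had a sum of 1502 to 2302 in knockouts and 1276 to 1691 in controls, with 0 called and 1 at an unadjusted p under 0.05. Leaving out single arrays gave 1 to 4 tuft calls: 1 without knockout 2 or any control, and 4 without knockout 3, in a fit that called 1452 genes. The part of cell makeup in the Sox differences was not tested.

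Markers of other cell types were read in the same way. Of 15 endothelial markers 6 were measured and 7 were well above background on no array (Cdh5, Kdr, Flt1, Emcn, Eng, Ramp2 and Flt4). Lyve1 rose by 4.64 ± 0.42 (limma adjusted p = 0.0017), Esam fell at least 2.62-fold, and Plvap, Pecam1, Egfl7 and Tek were not called. The sum was 6.68 to 17.4 in knockouts and 1.74 to 2.03 in controls. Lyve1 alone, with levels of 3.38, 3.99 and 2.40 in knockouts 1 to 3, made up most of the knockout sums. Of 11 fibroblast and smooth muscle markers 3 were measured and Acta2 rose (adjusted p = 0.0478), with a sum of 47.4 to 72.3 in knockouts and 28.6 to 42.0 in controls. Acta2 alone, with mean levels of 5.85 in knockouts and 4.94 in controls, made up most of that sum, and Vim and Tagln were not called. Of 8 T cell markers, all measured, Thy1 rose by 1.92 (adjusted p = 0.0209), with a sum of 8.56 to 17.5 in knockouts and 15.0 to 20.5 in controls. Of 9 enteroendocrine markers, all measured, 7 were negative, with a median of -0.21, and only Pax4 was called. Pax4 rose 4.01-fold (limma adjusted p = 0.0459, but 0.0597 with slide as a block). With that block 0 of the list were called and 3 had an unadjusted p under 0.05, 2 of them lower. Isl1 (-1.11 ± 0.32, adjusted p = 0.0618) and Chga (-0.79 ± 0.24, adjusted p = 0.0744) were lower but not called. The sum of the list was 53.1 to 87.1 in knockouts and 80.4 to 99.9 in controls. Of 5 enteric glia markers 2 were measured and Foxd3 rose by 1.76 (adjusted p = 0.0494), well above background on 3 knockout and 1 control arrays. Of the 19 genes called in these lists, 4 (Alox5ap, Bmi1, Lyve1 and Smarca2) kept an adjusted p under 0.05 whichever single array was left out, and the other 15 lost it without control 1 and without control 2. Of the 15, 13 also lost it without control 3 (all but Cd24a and Wnt3), 10 without knockout 2 (all but Ascl2, Esam, Pax4, Thy1 and Wnt3), 2 without knockout 3 (Acta2 and Pax4) and 1 without knockout 1 (Foxd3). Acta2, Foxd3 and Pax4 also lost it with the array median as scale, as did Bmi1 (limma adjusted p = 0.0552). Esam and Foxd3 lost it with normexp background correction. With no filter on dim probes only Alox5ap, Bmi1, Esam, Lyve1, Smarca2 and Wnt3 kept it.

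**Figure D3:**
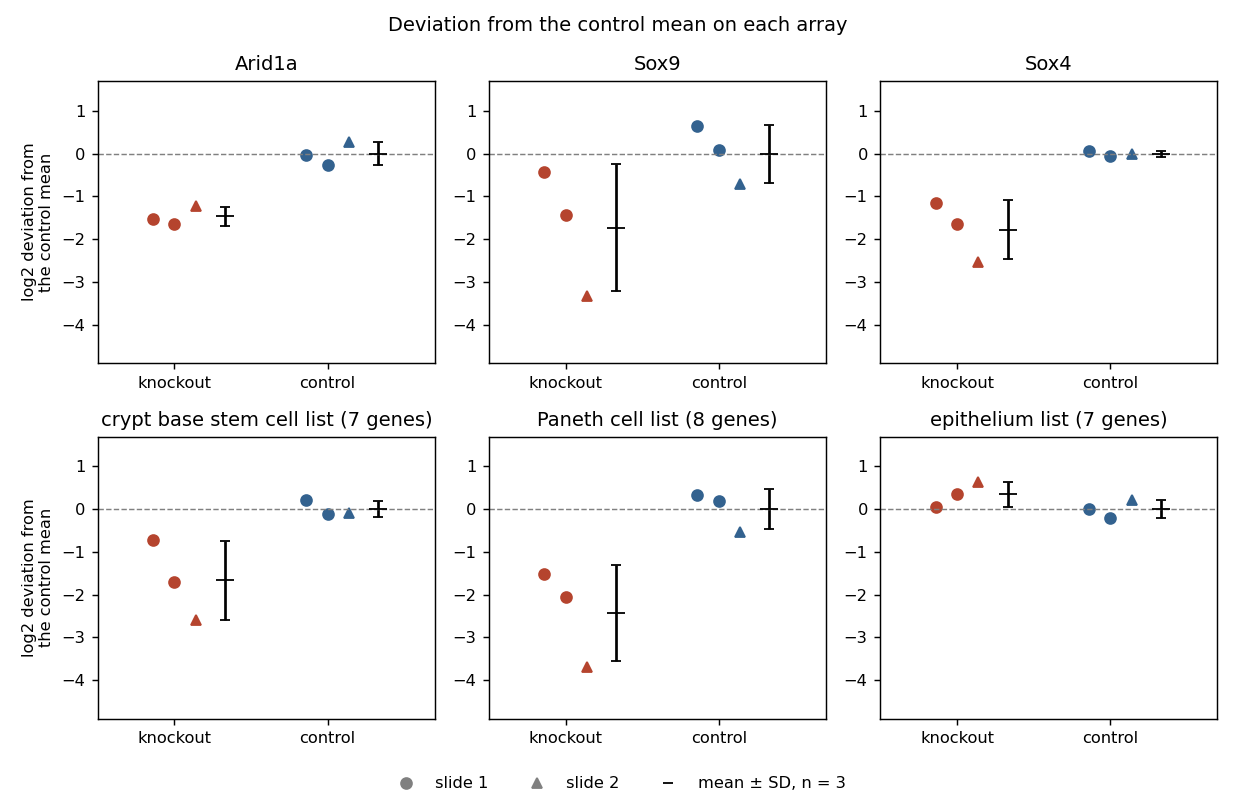
Deviation from the control mean (log2) on each array of Arid1a, Sox9 and Sox4 (top) and, averaged over genes, of the stem cell, Paneth cell and epithelial marker lists (bottom), knockouts left of controls; black marks are group means with SD. Sox9 is shown by its brighter probe. Knockout 3 is lowest for that probe, Sox4 and the stem and Paneth lists, at -2.58 and -3.68 for the lists.

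The pattern of the brighter Sox9 probe over the 6 arrays was set against 11119 genes well above background on all arrays. Pearson r was used, which ignores the size of a change. The nearest genes were Mrps23 (r = 0.999), a mitochondrial ribosomal protein, Srsf3 (0.998), a splicing factor, Camta1 (0.997), Adi1 (0.997) and Iftap (0.996). These values describe 6 arrays that share slides and groups, and 1084 genes had r over 0.9. None of the 5 was called, with limma adjusted p between 0.125 and 0.314. Their differences were smaller than the -1.73 of Sox9, from -0.27 for Mrps23 to -1.10 for Iftap.

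**Figure D4:**
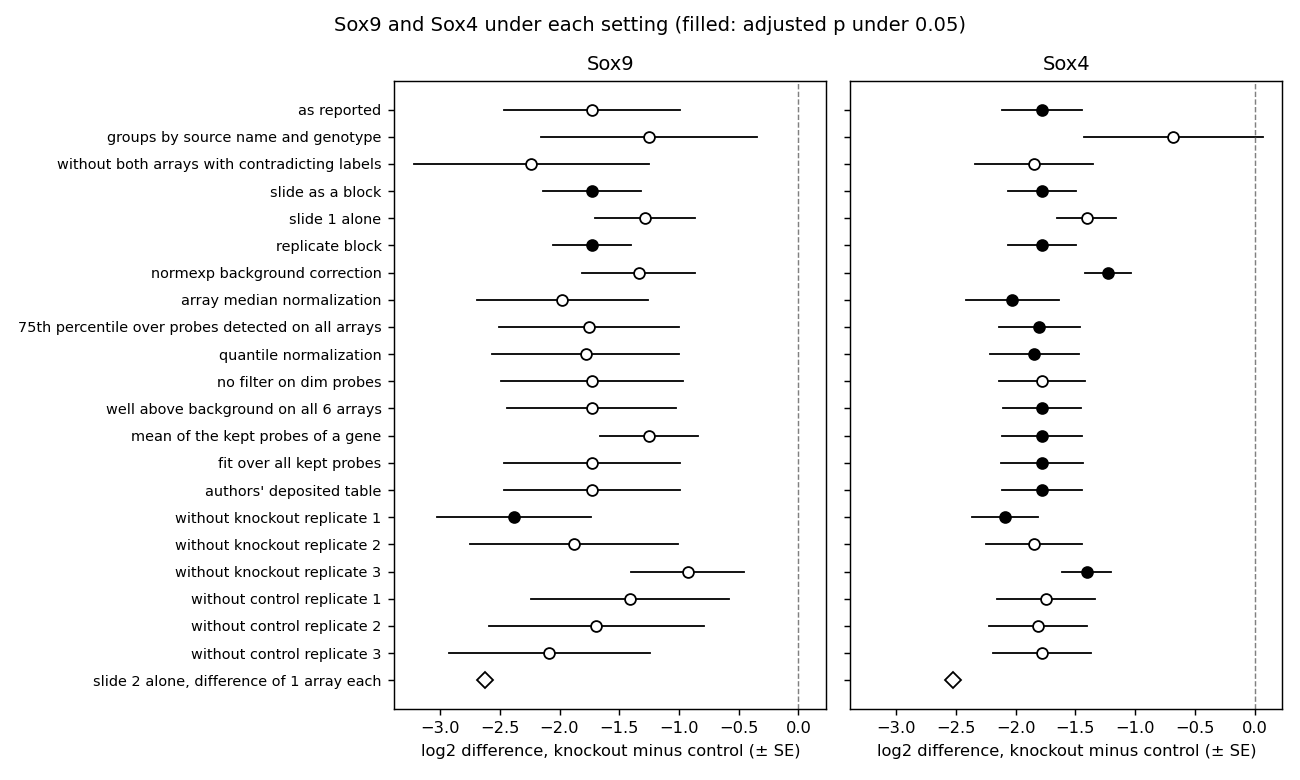
Log2 difference of Sox9 and Sox4, knockout minus control, under each alternative and with each array left out, with SE; filled points have an adjusted p under 0.05 and diamonds have no test. Sox4 spans -2.52 to -0.68 and is negative throughout; Sox9 spans -2.62 to -0.93 and is likewise below 0.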

How the data were processed

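RNA of isolated crypts was labelled with Cy3 and hybridised to 1-colour Agilent arrays, 1 per sample, per the labels. The authors' scanner files give each spot's processed intensity, background-subtracted within the array, from Agilent Feature Extraction 12.0.3.1 per the file headers (11.5.1.1 per the submitters' processing notes). A table the authors deposited for the whole series has log2 values on the same 75th percentile scale, centred on each probe's median over arrays. Column medians were -0.0717, 0.214 and -0.183 for knockouts 1 to 3 and 0.196, 0.0606 and -0.322 for controls 1 to 3, and the table served as an alternative.

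Spots that were controls or flagged as outliers were dropped, spots of a probe averaged, and log2 processed signal taken minus the array's 75th percentile; no spot was saturated. Probes were named by unversioned accession through a RefSeq table (GRCm38.p6): 33767 of 56605 received a symbol and 22838 did not. A probe was kept if at least 3 of 6 arrays flagged it well above background and all 6 had a value (26740). Each of 13492 genes was represented by its brightest kept probe; 4726 genes had several. A bound ("at least N-fold") was computed where a group was below background on every array. The fit was limma 3.58.1 in R 4.3.3 (lmFit, eBayes, group as the only term), two-sided, Benjamini-Hochberg over all genes, called at an adjusted p under 0.05; it was tested on simulated data. The members and gene lists were chosen with earlier results of these data known, and the genes named are Arid1a, the members, other Sox genes detected anywhere, up to 3 of each list by p, and the 5 profiles nearest to Sox9. Other list members named were chosen after their values were seen. A gene under this rule is not reported here. Alternatives were the group labels, slide, replicate number, background correction, normalization, filter, probe choice, deposited table and each array left out. The number of arrays limits the precision.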

Additional observations from a re-analysis of the deposited data

How the results depend on the processing

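Genes called numbered 2011, against 0 with groups taken from source name and genotype, which swaps knockout 2 and control 3 (207 at an unadjusted p under 0.05 in limma), 320 without the pair of arrays with contradicting labels, 689 on slide 1 alone, 697 with no filter, and 638 to 4033 with single arrays left out. With the array median as the scale, 28.8% of called genes were higher, against 48.8%, and the median gene shifted to -0.26. Of the Sox members, 1 was called, against 0 with the swapped labels (0 at an unadjusted p under 0.05), 0 without the contradicting arrays (1 unadjusted), 0 on slide 1 alone (2 unadjusted), 0 with no filter (1 unadjusted), 2 with slide as a block, and 0 to 3 with single arrays left out. The replicate numbers are shared between groups, and deviations of same-numbered samples correlated at 0.246, 0.0797 and 0.352. Every knockout correlated best with the control of its own number, and other combinations gave -0.281 to 0.0205. Knockout 3 and control 3 also share slide 2, so number and slide cannot be told apart for them. These values do not settle whether the samples are pairs, and the main fit did not pair them. The replicate block called 2733 genes and 2 members, with Sox9 at -1.73 (limma adjusted p = 0.0300). Sox9 was called with slide as a block (-1.73) and spanned -2.38 to -0.93 with single arrays left out; with swapped labels it was -1.25. Signs reversed as follows. Sox5 was -0.092 on slide 2 alone, -0.024 with normexp, -0.23 with the array median, -0.10 with quantile normalization, and -0.19 to 0.30 with single arrays left out. Sox13 was 0.52 with swapped labels, 0.20 without the contradicting arrays, 0.28 on slide 2 alone and -0.61 to 0.12 with single arrays left out. Sox21 was -0.042 with swapped labels, Mrps23 0.020 with the mean of its probes, and Sox1 0.067 with normexp and -0.24 to 0.015 with single arrays left out. The cause was not tested. Dim probes, such as those of Sox12 and Sox18, limit what these arrays can show.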

Other observations

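Sox14, of the SoxB group, was well above background on a single array. Its brighter probe had levels of -5.96, -5.56 and -6.79 in knockouts 1 to 3, against -3.54, 0.42 and -5.04 in controls 1 to 3, and only control 2 passed the background flag. Its other probe was well above background on no array.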
